A study of Mus musculus with 60 samples.

Results

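Monoamine neurotransmission depends on a small set of enzymes and transporters, and 9 of their genes were followed here in the hippocampus of a mouse model of Huntington's disease. They are the synthesis genes Th, Tph2, Ddc and Dbh, the transporter genes Slc6a3, Slc6a4 and Slc18a2, and the breakdown genes Maoa and Maob. They were taken by name from an expression table of 24508 gene symbols, and all 9 were in it. The study compared WT mice with R6/1 mice, all 30 weeks old and from a cross of CBA x C57BL/6. The R6/1 line is transgenic for exon 1 of human huntingtin with an expanded CAG repeat, under the human huntingtin promoter, in addition to the mouse huntingtin genes. RNA-seq was made from frozen hippocampal tissue, with 9 independent biological replicates per genotype per the labels, and gave 18 libraries of between 12299434 and 16736544 reads on genes. Lamin B1 ChIP-seq from pooled hippocampi of the same genotypes gave 1 list of lamina-associated domains per genotype.

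Dopamine, noradrenaline and serotonin are made by neurons whose cell bodies lie in the midbrain, the locus coeruleus and the raphe nuclei, and the hippocampus receives their axons. Tyrosine hydroxylase (Th) and tryptophan hydroxylase 2 (Tph2) carry out the first and limiting steps, aromatic L-amino acid decarboxylase (Ddc) makes dopamine and serotonin, and dopamine beta-hydroxylase (Dbh) turns dopamine into noradrenaline. The vesicular transporter Slc18a2 loads monoamines into vesicles, the plasma membrane carriers Slc6a3 (dopamine) and Slc6a4 (serotonin) take them back up, and the monoamine oxidases Maoa and Maob break them down on the outer mitochondrial membrane. Most messenger RNA of such a neuron stays near its cell body, and the oxidases are made by many other cells as well, astrocytes among them for Maob.

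Promoter sequences of the 4 genes that differed between the genotypes are printed here, because their expression changed and because the starts of Ddc, Tph2 and Maoa lay in a lamin B1 domain, as described further on. They come from RefSeq on build GRCm38.p6, run 5′ to 3′ on the strand of the gene, and hold 250 bases before and 50 bases after the transcription start. The table held entries for 8 of the 9 genes, and none for Maob. Capitals mark exact matches, on either strand, to TATAAA (the core of a TATA box), GGGCGG (the core of a GC box) or TGACGTCA (a cyclic AMP response element). These motifs did not overlap one another in the sequences shown, and a match describes the letters only. Ddc has starts 7.7 kb apart in this table, and the gene-level expression values do not separate their transcripts.
Ddc, upstream start, minus strand, chr11:11898095-11898394: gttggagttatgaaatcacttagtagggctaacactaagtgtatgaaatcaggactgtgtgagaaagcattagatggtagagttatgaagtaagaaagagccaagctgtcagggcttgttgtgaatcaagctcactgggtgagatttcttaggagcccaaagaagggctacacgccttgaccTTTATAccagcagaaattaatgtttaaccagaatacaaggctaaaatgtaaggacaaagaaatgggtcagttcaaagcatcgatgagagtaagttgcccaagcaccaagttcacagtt
Ddc, downstream start, minus strand, chr11:11890359-11890658: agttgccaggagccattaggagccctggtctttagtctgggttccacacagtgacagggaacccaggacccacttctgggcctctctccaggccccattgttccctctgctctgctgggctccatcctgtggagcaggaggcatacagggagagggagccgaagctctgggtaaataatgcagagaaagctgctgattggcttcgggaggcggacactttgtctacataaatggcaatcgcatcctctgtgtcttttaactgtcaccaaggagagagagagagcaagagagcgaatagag
Tph2, minus strand, chr10:115184973-115185272: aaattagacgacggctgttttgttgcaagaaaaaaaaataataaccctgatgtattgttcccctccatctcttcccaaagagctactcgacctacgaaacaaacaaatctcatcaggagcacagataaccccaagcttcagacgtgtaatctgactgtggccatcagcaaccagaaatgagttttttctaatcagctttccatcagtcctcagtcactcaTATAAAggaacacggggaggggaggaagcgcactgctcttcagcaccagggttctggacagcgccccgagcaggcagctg
Dbh, plus strand, chr2:27165257-27165556: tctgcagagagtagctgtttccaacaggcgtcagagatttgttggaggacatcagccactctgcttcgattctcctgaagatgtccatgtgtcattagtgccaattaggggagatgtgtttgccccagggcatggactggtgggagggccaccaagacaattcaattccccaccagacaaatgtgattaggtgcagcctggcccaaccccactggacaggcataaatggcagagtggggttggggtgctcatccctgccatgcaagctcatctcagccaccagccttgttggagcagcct
Maoa, plus strand, chrX:16619448-16619747: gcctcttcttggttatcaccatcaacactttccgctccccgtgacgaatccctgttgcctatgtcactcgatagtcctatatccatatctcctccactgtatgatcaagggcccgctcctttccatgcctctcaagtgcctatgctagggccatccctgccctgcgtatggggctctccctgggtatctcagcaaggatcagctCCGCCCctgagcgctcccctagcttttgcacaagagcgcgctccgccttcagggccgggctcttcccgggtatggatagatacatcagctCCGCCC
In the Tph2 promoter the TATAAA match begins 30 bases before the start. At the upstream start of Ddc the match begins 68 bases before it and lies on the opposite strand, written TTTATA. Maoa held 2 GGGCGG matches, both on the opposite strand (CCGCCC), and neither Dbh nor the downstream start of Ddc held any of the 3 motifs in this window. Among 32851 RefSeq mouse promoters of the same length, 13.6% held TATAAA, 35.7% held GGGCGG and 1.79% held TGACGTCA. Th and Slc18a2, which did not differ between the genotypes beyond the test's threshold, each held 1 TGACGTCA match, beginning 45 and 4 bases before the start.

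Levels were compared between genes as RPKM (reads per kilobase of gene, scaled for depth by the authors), which allows for gene length. Over the 18 libraries the order by mean RPKM was Maoa (12.9), Maob (10.9), Ddc (3.95), Slc18a2 (1.93), Tph2 (0.562), Th (0.240), Dbh (0.165), Slc6a3 (0.0473) and Slc6a4 (0.0404). The breakdown genes thus stood above all the others, and Maoa had a higher mean than 78.1% of the genes in the table. Within each genotype the ranges of Maoa and Maob overlapped, as did those of Th and Dbh and those of Slc6a3 and Slc6a4. Ddc overlapped Slc18a2 in WT but lay entirely above it in R6/1, and Tph2 overlapped Th in WT but lay entirely above it in R6/1. The plasma membrane carriers were at the limit of detection, with a mean above that of 26.4% (Slc6a3) and 25.7% (Slc6a4) of all genes, the genes without any read among them.

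**Figure D1:**
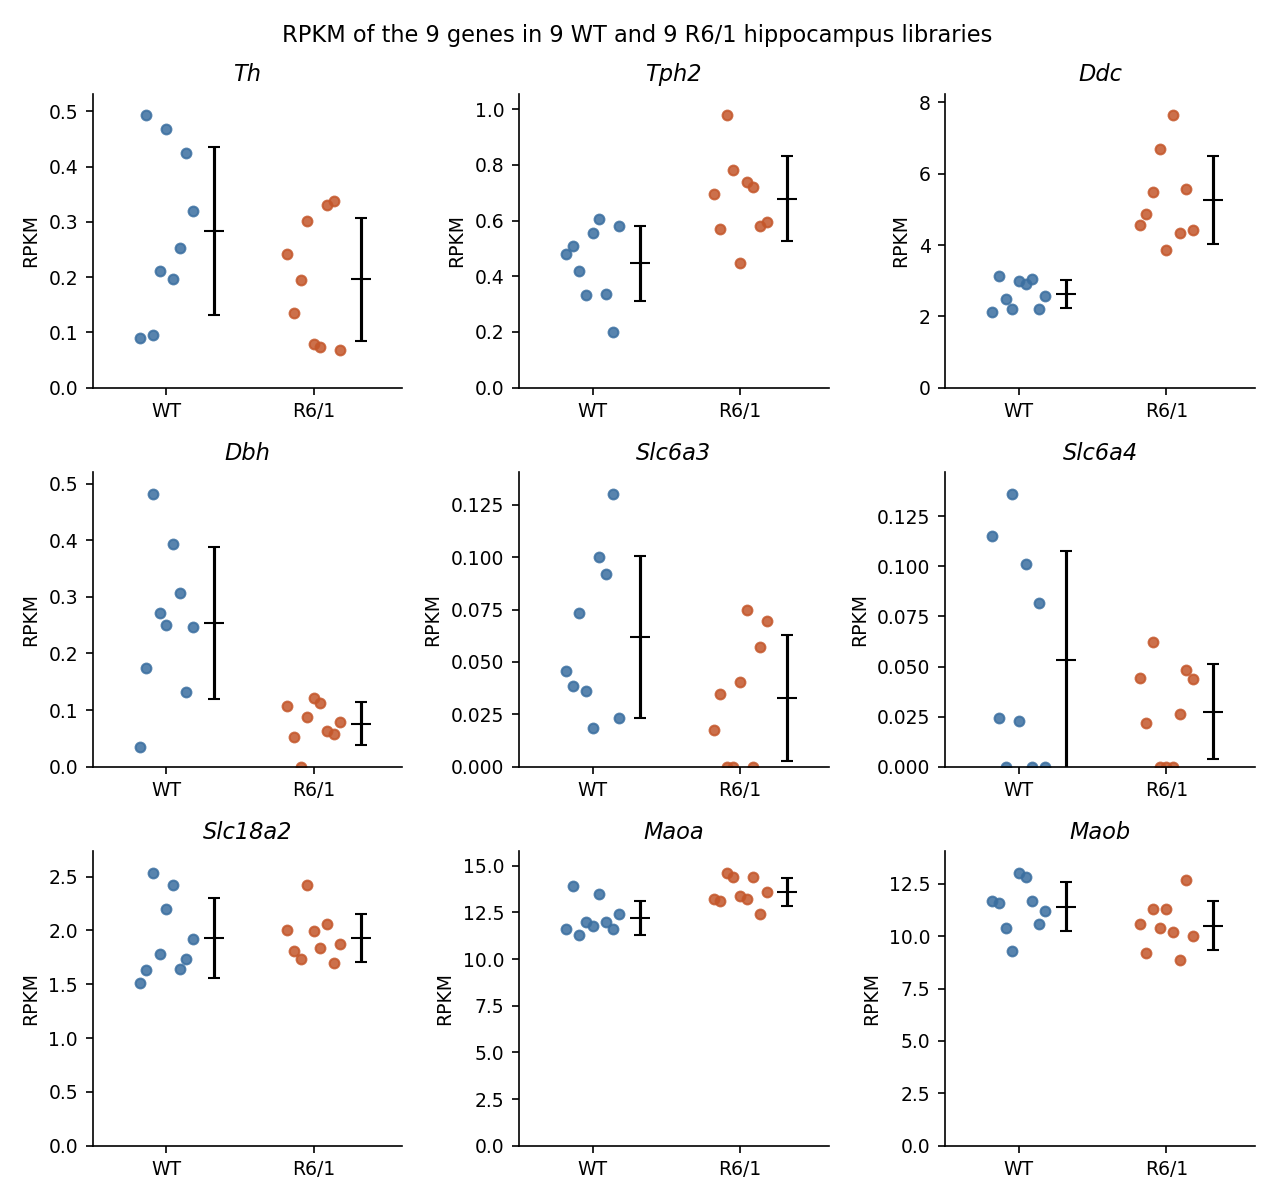
RPKM of the 9 genes (vertical axis, linear, from 0, scaled per gene) in the 9 WT and 9 R6/1 libraries, 1 point per library, with the mean and the SD drawn beside the points and the SD bar of Slc6a4 in WT ending at the axis. All R6/1 points of Ddc lie above all WT points, 8 of 9 WT points of Dbh lie above all R6/1 points, and the other genes overlap.

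The question put to each gene was whether its messenger RNA differed between the genotypes. Differences were tested on log2(RPKM + 0.5) with limma, with Benjamini-Hochberg adjustment over all genes tested and a threshold of 0.05. The 5 members whose mean reached 0.5 RPKM were read from the fit of 14446 such genes, and Th, Dbh, Slc6a3 and Slc6a4 from a fit of the 20791 genes with any read. Ddc, Tph2 and Maoa were higher in R6/1 and Dbh was lower. Thus 3 of the 5 members above the minimum were higher and 0 were lower. This count depends on the minimum, which Tph2 reached through its R6/1 libraries and which left out Dbh. In the fit of 14446 genes 48.3% of all genes passed (24.8% higher and 23.5% lower in R6/1), so that passing the test was common in this tissue. When own read totals replaced the authors' scaling, 5110 genes were higher and 2526 lower, against 3586 and 3394, and the median log2 fold change of all genes moved from 0.00 to 0.07, while the same number of members was called in each direction. In the fit without a minimum 35.2% passed (17.6% higher, 17.7% lower), and the 9 members gave 3 higher and 1 lower. The groups did not overlap for 1 of the 5 members above the minimum, Ddc, against 11.9% of all genes in that fit. Fold changes of genes under about 1 RPKM are understated on this scale because of the added 0.5. RNA was taken from whole tissue, so that fewer cells of a type and less RNA per cell cannot be told apart. The p-values measure the spread between the libraries of a genotype.

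**Figure D2:**
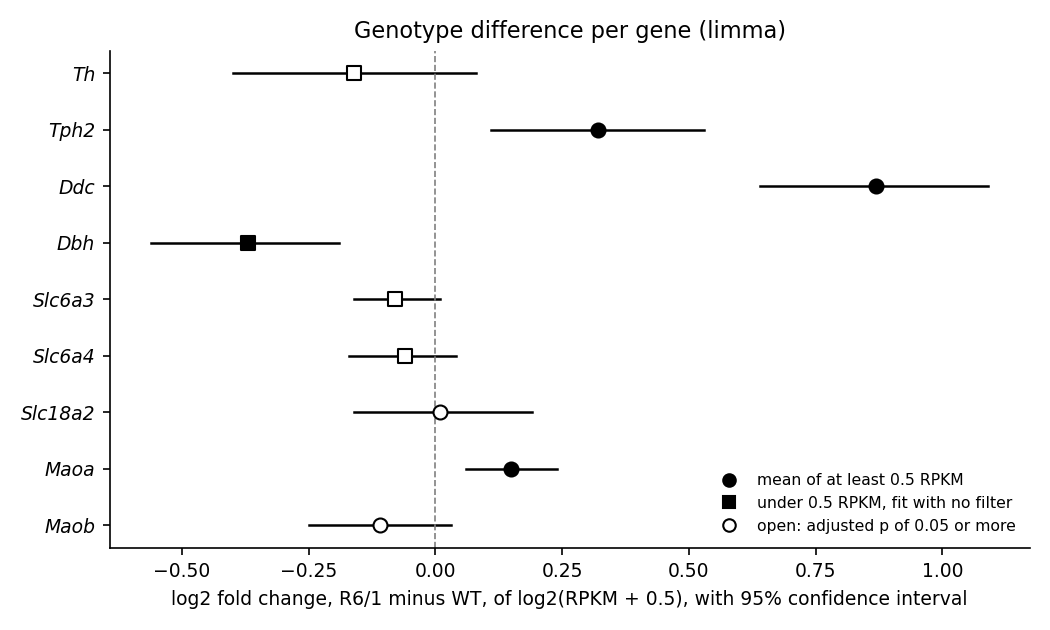
Log2 fold change of each gene, R6/1 minus WT, on the log2(RPKM + 0.5) scale (horizontal axis), with the 95% confidence interval from limma. Filled symbols have an adjusted p under 0.05: Ddc (0.87), Tph2 (0.32) and Maoa (0.15) on the right and Dbh (-0.37) on the left.

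Among the synthesis genes Ddc showed the clearest difference. Its level ran from 2.11 to 3.12 RPKM in WT with a median of 2.57, and from 3.85 to 7.64 RPKM in R6/1 with a median of 4.87. Every R6/1 library lay above every WT library, and the R6/1 libraries were also more spread, replicates 6 and 4 being the highest. The mean was 2.63 ± 0.399 RPKM over the WT libraries and 5.27 ± 1.23 RPKM over those of R6/1 (SD, n = 9 per genotype), a ratio of 2.00. The log2 fold change was 0.87 with a standard error of 0.108 and a 95% confidence interval from 0.64 to 1.09 (limma, Benjamini-Hochberg adjusted p = 1.79e-06). Each WT library held between 56 and 100 Ddc reads and each R6/1 library between 116 and 247, so that counting error was small beside the difference. Among the genes above the minimum, 5.50% were higher in R6/1 without overlap. Leaving out any 1 library moved the log2 fold change between 0.80 and 0.91. The authors' deposited table gives Ddc a log2 fold change of 0.93 with an adjusted p of 3.83e-13, and 40.4% of the genes with an adjusted p in that table pass the same threshold.

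Tph2, the brain form of tryptophan hydroxylase, was much lower and also rose. Its level ran from 0.199 to 0.606 RPKM in WT with a median of 0.479, and from 0.449 to 0.978 RPKM in R6/1 with a median of 0.695. The groups overlapped, but 5 R6/1 libraries lay above the highest WT library and 4 WT libraries below the lowest R6/1 library. The mean was 0.446 ± 0.135 RPKM over the WT libraries and 0.678 ± 0.153 RPKM over those of R6/1 (SD, n = 9 per genotype), a ratio of 1.52. The log2 fold change was 0.32 with a standard error of 0.102 (limma, Benjamini-Hochberg adjusted p = 0.0131). It rested on few reads, between 7 and 23 per WT library and between 17 and 45 per R6/1 library. Tph2 passed the minimum of 0.5 RPKM through its R6/1 libraries, its WT mean being below it, and in the fit without a minimum its adjusted p was 0.0110. With a pseudocount of 0.1 in place of 0.5 the log2 fold change was 0.53, and on the reads recovered from the table (limma-voom) it was 0.63. R6/1 replicate 3 was the highest library for Tph2, and without it the adjusted p was 0.0289.

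Dbh went the other way. Its level ran from 0.0345 to 0.481 RPKM in WT with a median of 0.250, and from 0 to 0.122 RPKM in R6/1 with a median of 0.0791. All WT libraries except replicate 1 lay above all R6/1 libraries. The mean was 0.254 ± 0.134 RPKM over the WT libraries and 0.0758 ± 0.0377 RPKM over those of R6/1 (SD, n = 9 per genotype), a ratio of 0.298. This corresponds to 74 reads over the 9 WT libraries and 24 reads over the 9 R6/1 libraries, with at most 13 in any library and none in R6/1 replicate 3. A count of 0 allows up to 3 reads by counting error alone, which is worth between 0.0750 and 0.111 RPKM of Dbh depending on the library. The log2 fold change was -0.37 with a standard error of 0.088 in the fit without a minimum (limma, Benjamini-Hochberg adjusted p = 0.00251). Its size depends on the scale for so low a gene. It was -0.94 with a pseudocount of 0.1, -1.61 on recovered reads with limma-voom, and -0.95 in the authors' deposited table.

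Th, the limiting enzyme of dopamine and noradrenaline synthesis, ran from 0.0895 to 0.493 RPKM in WT with a median of 0.253 and from 0.0685 to 0.338 RPKM in R6/1 with a median of 0.195. The groups overlapped over most of their range, 3 WT libraries lying above and 3 R6/1 libraries below the other group. The log2 fold change was -0.16 with a 95% confidence interval from -0.40 to 0.08 (limma, Benjamini-Hochberg adjusted p = 0.307). With between 2 and 13 reads per library a change of the size seen for Dbh lay within this interval on the same scale.

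**Figure D3:**
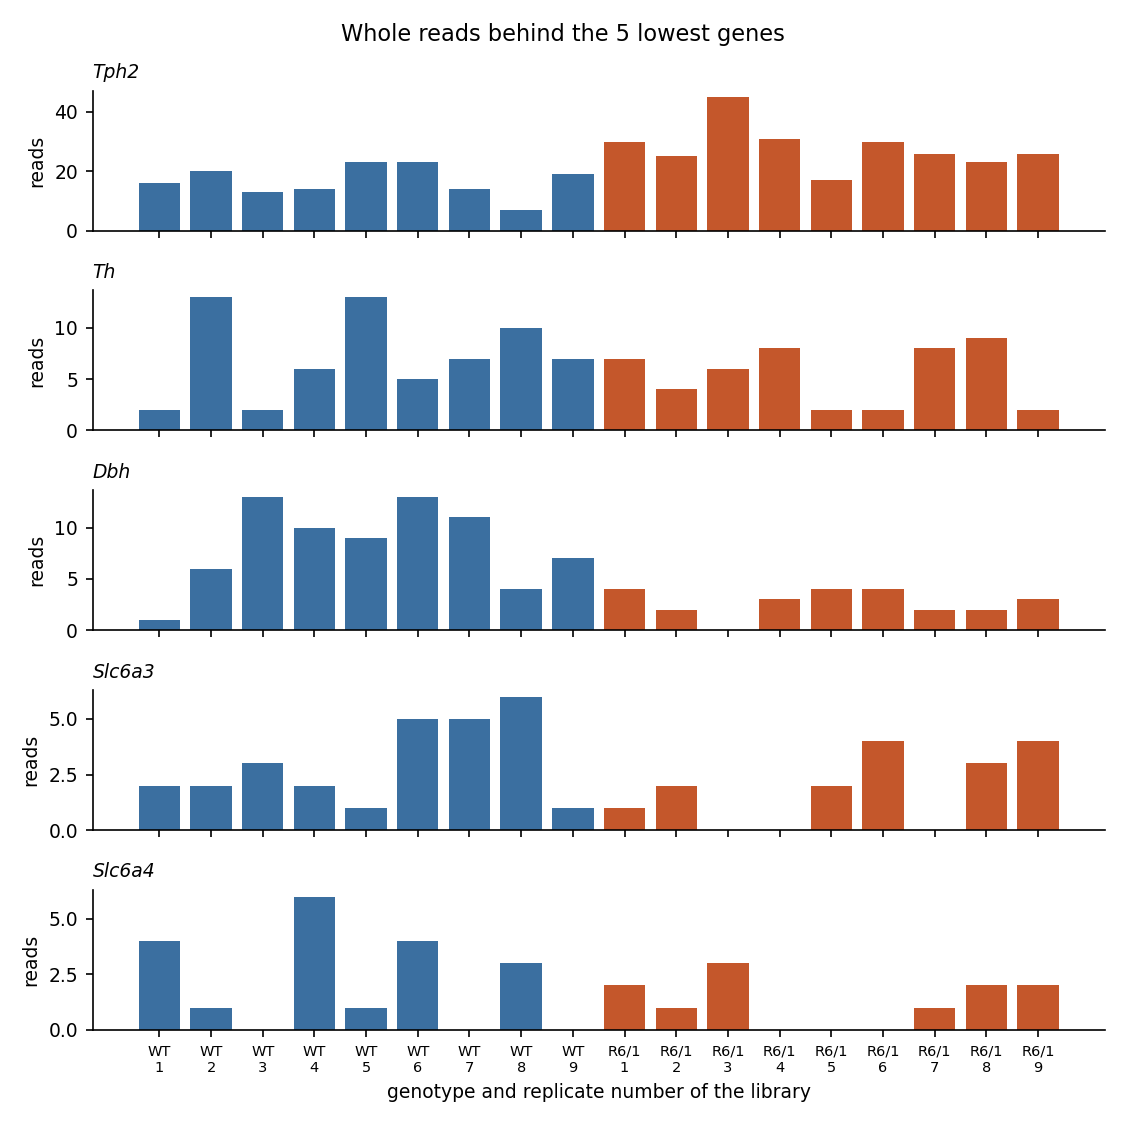
Whole reads (vertical axis, linear, from 0) recovered for the 5 genes of lowest level in each of the 18 libraries (horizontal axis, by genotype and replicate number). Tph2 reached 45 reads in R6/1 replicate 3, Dbh at most 13 in WT and at most 4 in R6/1, and Slc6a3 and Slc6a4 at most 6.

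The transporter genes showed no difference past the threshold, and in the fit above the minimum limma called 0 of 1, as did the unadjusted p and limma-voom. Slc18a2, which fills vesicles with every monoamine, ran from 1.51 to 2.53 RPKM in WT with a median of 1.78 and from 1.70 to 2.42 RPKM in R6/1 with a median of 1.87. The R6/1 range lay inside the WT range. The means were 1.93 ± 0.368 and 1.93 ± 0.220 RPKM (SD, n = 9 each). The log2 fold change was 0.01 with a 95% confidence interval from -0.16 to 0.19 (limma, Benjamini-Hochberg adjusted p = 0.912), so that the interval leaves out the changes of Ddc and Tph2 on the same scale. Each library held between 73 and 139 Slc18a2 reads. The dopamine carrier Slc6a3 ran from 0.0183 to 0.130 RPKM in WT with a median of 0.0455 and from 0 to 0.0748 RPKM in R6/1 with a median of 0.0346. The groups overlapped, and the gene was without reads in 3 R6/1 libraries. It had 27 reads over all WT and 16 over all R6/1 libraries, with a log2 fold change of -0.08 (limma, Benjamini-Hochberg adjusted p = 0.183) and a 95% confidence interval from -0.16 to 0.01. The serotonin carrier Slc6a4 ran from 0 to 0.136 RPKM in WT with a median of 0.0242 and from 0 to 0.0623 RPKM in R6/1 with a median of 0.0265. It was without reads in 3 libraries of each genotype. Its 19 WT and 11 R6/1 reads gave a log2 fold change of -0.06 (limma, Benjamini-Hochberg adjusted p = 0.361) and a 95% confidence interval from -0.17 to 0.04.

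Of the breakdown genes Maoa, whose enzyme prefers serotonin and noradrenaline, rose slightly. Its level ran from 11.3 to 13.9 RPKM in WT with a median of 12.0 and from 12.4 to 14.6 RPKM in R6/1 with a median of 13.4. The groups overlapped, although all 9 R6/1 libraries lay above the WT median and 6 WT libraries below the lowest R6/1 library. The mean was 12.2 ± 0.890 RPKM over the WT libraries and 13.6 ± 0.745 RPKM over those of R6/1 (SD, n = 9 per genotype), a ratio of 1.11. The log2 fold change was 0.15 with a standard error of 0.044 (limma, Benjamini-Hochberg adjusted p = 0.00876). Between 558 and 1062 reads per library make this the best counted of the 9 genes. Maob, the form of astrocytes and serotonin neurons, ran from 9.30 to 13.0 RPKM in WT with a median of 11.6 and from 8.86 to 12.7 RPKM in R6/1 with a median of 10.4. The ranges overlapped almost entirely. The mean was 11.4 ± 1.17 RPKM over the WT libraries and 10.5 ± 1.16 RPKM over those of R6/1 (SD, n = 9 per genotype), with a log2 fold change of -0.11 (95% confidence interval from -0.25 to 0.03, limma, Benjamini-Hochberg adjusted p = 0.198). Both genes lie on the X chromosome. Xist did not exceed 0.0365 RPKM and the Y-linked Ddx3y was at 11.6 RPKM or more in all 18 libraries.

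Other genes of the same pathways were counted by lists written with earlier results of these data known. The median log2 fold change of all 14446 genes was 0.00, and 24.8% of them were higher and 23.5% lower in R6/1. Among the enzymes that make tetrahydrobiopterin, the cofactor of Th and Tph2, 2 of 4 tested genes rose and 1 fell, with a median of 0.10. Qdpr, which regenerates the cofactor, fell by 0.66 on the log2 scale, its WT mean being 136 ± 9.49 and its R6/1 mean 87.5 ± 19.1 RPKM (SD, n = 9 per genotype; limma, Benjamini-Hochberg adjusted p = 1.20e-05). Pcbd1, which also serves its recycling, rose by 0.35 (adjusted p = 0.0225) and Spr, sepiapterin reductase, by 0.19 (adjusted p = 0.00897). Gch1, the entry enzyme, lay below the minimum over all libraries and was not tested in this fit. Its mean was 0.506 RPKM in WT and 0.335 RPKM in R6/1.

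Of the other synthesis enzymes Hdc alone passed the minimum. Hdc makes histamine and fell from a WT mean of 0.748 ± 0.285 to an R6/1 mean of 0.322 ± 0.161 RPKM, a log2 fold change of -0.60 (limma, Benjamini-Hochberg adjusted p = 0.00210), with 8 WT libraries above all R6/1 libraries. It passed the minimum through its WT libraries, its R6/1 mean being below it, and in the fit without a minimum the adjusted p was 0.00270. Tph1, the form of tryptophan hydroxylase outside the brain, averaged 0.136 RPKM in WT and 0.101 RPKM in R6/1. Pnmt, which makes adrenaline, averaged 0.0512 and 0.189 RPKM, on 6 and 23 reads in all. Of the other transporters 1 of 6, Slc29a4, a low-affinity monoamine carrier, could be tested, and its log2 fold change was -0.11 (limma, Benjamini-Hochberg adjusted p = 0.442). The noradrenaline carrier Slc6a2 averaged 0.0552 RPKM in WT and 0.0404 RPKM in R6/1, and Slc22a3, another low-affinity carrier, 0.207 and 0.150 RPKM.

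Among the other breakdown enzymes 3 of 6 tested genes rose and 2 fell, with a median log2 fold change of 0.11, against 24.8% and 23.5% of all genes tested. Sult1a1, a phenol sulfotransferase, rose from 3.48 ± 0.837 to 9.86 ± 3.89 RPKM (log2 fold change 1.27, limma, Benjamini-Hochberg adjusted p = 1.86e-04), with 8 R6/1 libraries above the highest WT library and 1 R6/1 library within the WT range. The aldehyde reductase gene Akr1a1 rose by 0.29 (adjusted p = 3.90e-06) without overlap between the groups, and the aldehyde dehydrogenase gene Aldh1a1 fell by 0.28 (adjusted p = 0.00679). Akr1b3 was listed at 0 in all 18 libraries. On the receiving side, 1 of 10 tested dopamine and adrenergic receptor genes rose and 5 fell, with a median log2 fold change of -0.38. The dopamine receptor genes Drd1 and Drd5 fell by 0.69 (limma, Benjamini-Hochberg adjusted p = 1.95e-05) and 0.66 (adjusted p = 0.00122), and the adrenergic receptor gene Adra1d fell by 0.66 (adjusted p = 4.58e-05).

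Markers of the cells that make monoamines were read beside the members. Of the serotonin neuron markers, the transcription factor genes Fev and Lmx1b had 1 and 5 reads over the 9 WT libraries and 15 and 13 reads over the 9 R6/1 libraries, and Gata3 had 13 and 5. Their mean levels stayed at or under 0.0744 RPKM in both genotypes, below those of Tph2 and Ddc. The remaining markers of that list, En1 and Slc17a8, made up most of its sum, which ran from 1.19 to 2.39 RPKM in WT and from 1.86 to 3.53 RPKM in R6/1. En1, a homeobox gene of midbrain and hindbrain, had 2 reads over all WT libraries and 568 over all R6/1 libraries, between 1.05 and 2.26 RPKM in each of the latter. Slc17a8, the vesicular glutamate transporter of raphe neurons and of some interneurons, averaged 1.58 RPKM in WT and 0.898 RPKM in R6/1 (log2 fold change -0.57, limma, Benjamini-Hochberg adjusted p = 4.07e-04). En1 passed the minimum through its R6/1 libraries alone, so that its place among the tested genes came from the genotype in which it is high, and in the fit without a minimum its adjusted p was 4.97e-11 (limma). The part of serotonin neuron RNA in the rise of Tph2 and Ddc was not tested.

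For noradrenaline neurons, the transcription factor gene Phox2a was at 0 reads in all 9 WT libraries and at 2 reads over the 9 R6/1 libraries. The sum of that list, carried by Slc6a2, ran from 0.0397 to 0.0768 RPKM in WT and from 0.0218 to 0.0888 RPKM in R6/1. Slc6a2 had 43 reads over the WT and 35 over the R6/1 libraries. The part of noradrenaline neuron RNA in the Dbh values was not tested. For dopamine neurons, Pitx3 had 1 read in WT and 5 in R6/1, Foxa1 4 and 32, Foxa2 1 and 0, and Lmx1a, a gene also of choroid plexus, 62 and 93. En1, the fifth gene of the dopamine list, made up most of its sum in R6/1. Pineal markers summed to between 1.47 and 2.60 RPKM in WT and between 1.76 and 2.56 RPKM in R6/1, and 0 of the 2 tested passed the threshold in limma, by the adjusted or the unadjusted p, or in limma-voom (Sag, the highest, had a limma adjusted p of 0.568). Under the minimum, Aanat averaged 0.131 RPKM in WT and 0.231 RPKM in R6/1, on 25 and 47 reads in all. Gngt1 of the same list averaged 0.316 and 0.164 RPKM, on 39 and 22 reads.

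Tissue that borders the hippocampus was present in varying amount. Choroid plexus markers, of which Ttr was the highest, summed to between 26.4 and 1090 RPKM in WT with a median of 125 and to between 39.9 and 1750 RPKM in R6/1 with a median of 397. Of the 10 markers 0 passed the test in limma, by the adjusted or the unadjusted p, or in limma-voom, against 48.3% of all genes tested in limma. Their standard errors were large, from 0.253 (Prlr) to 0.915 (Ttr, with a log2 fold change of 0.77). The test therefore could not show these markers to be equal between the genotypes. The library with the largest sum, R6/1 replicate 3, was also the highest for Tph2. Of Ddc, the fold change was 0.78 over the 5 libraries of each genotype with the smallest sums (limma, Benjamini-Hochberg adjusted p = 0.00237) and 0.98 over the 4 with the largest (adjusted p = 4.59e-04), on the log2 scale. For Tph2 the same values were 0.36 (adjusted p = 0.0613) and 0.27 (adjusted p = 0.233), and for Maoa 0.13 (adjusted p = 0.0804) and 0.17 (adjusted p = 0.149). For Dbh they were -0.28 (adjusted p = 0.0141) and -0.49 (adjusted p = 0.120). The libraries were ranked within each genotype, so that the 5 with the smallest sums reached 125 RPKM in WT and 397 RPKM in R6/1. The ends were therefore not matched between the genotypes in choroid plexus markers. The direction of each of these 4 genes was the same at either end. For Ddc this was fixed beforehand, since every R6/1 library lay above every WT library, and the split was chosen after the data were seen. Of them Ddc alone passed the threshold at both, with the smaller number of libraries. The part of choroid plexus RNA in these differences was not tested.

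The summed markers of thalamus and habenula were lower in most R6/1 libraries. Their sum ran from 18.1 to 68.2 RPKM in WT, WT replicate 6 being the highest, and from 11.6 to 21.0 RPKM in R6/1, and 8 of 9 R6/1 sums lay below the lowest WT sum. Of 6 tested 3 fell and 0 rose, against 23.5% and 24.8% of all genes tested. Prkcd, the highest of the list, fell from a mean of 15.1 to one of 4.11 RPKM, a log2 fold change of -1.64 (limma, Benjamini-Hochberg adjusted p = 6.00e-06). Slitrk6 of the same list had a log2 fold change of 0.31 (limma, Benjamini-Hochberg adjusted p = 0.182). Dbh and Hdc were also lower in R6/1 and Ddc and Tph2 higher, and the part of this tissue in these differences was not tested. Hypothalamus markers summed to at most 3.12 RPKM in any library, with Agrp the highest, and none reached the minimum for testing.

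**Figure D4:**
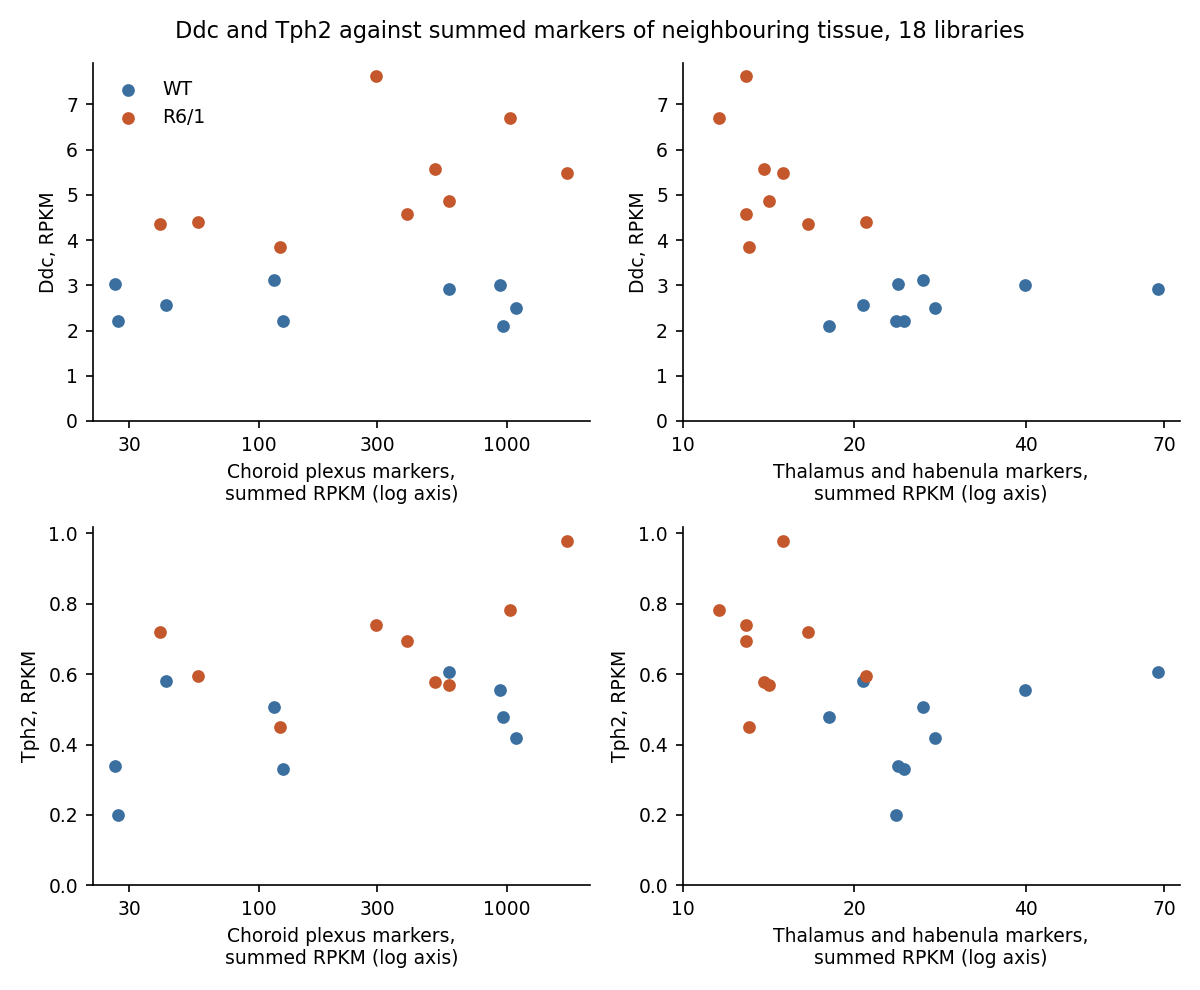
Ddc (upper panels) and Tph2 (lower panels) in RPKM (vertical axis, linear, from 0) against the summed RPKM of choroid plexus markers (left) and of thalamus and habenula markers (right), both on a log axis, 1 point per library. Ddc is higher in R6/1 along the whole range of the choroid plexus sum, and 8 of 9 R6/1 libraries have a thalamus and habenula sum below the lowest of WT.

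The remaining marker lists describe the tissue, and their counts stand beside 24.8% of all genes tested that were higher and 23.5% that were lower. Hippocampal markers were present in all libraries, and 6 of 6 fell, among them Neurod6, a gene of pyramidal neurons, from 88.7 ± 9.13 to 29.1 ± 2.85 RPKM (SD, n = 9 each). Astrocyte markers fell in 7 of 8 cases, with Slc1a2, the main glutamate carrier, the highest (log2 fold change -0.73, limma, Benjamini-Hochberg adjusted p = 2.63e-08), while Maob, a gene of astrocytes, did not pass the test. Interneuron markers fell in 7 of 8 cases, with Sst the highest (-1.17, adjusted p = 3.90e-09), and striatal markers in 3 of 6 (Ppp1r1b, the highest, -0.65, adjusted p = 2.44e-08). Of the ependymal markers 1 of 4 fell (Foxj1, the highest, did not pass), of the meningeal markers 2 of 8 fell (Dcn, the highest, did not pass) and of the smooth muscle markers, with Acta2 the highest, 0 of 3 passed in limma, by the adjusted or the unadjusted p, or in limma-voom. Of 5 endothelial markers 1 rose, Slc2a1, the highest (0.41, adjusted p = 1.09e-05), and 1 fell. Apart from the endothelial list, none of the lists in this paragraph held a gene that passed as higher, and the part of any of them in the results of the 9 genes was not tested.

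Likeness to each member was described by the Pearson correlation over the 18 libraries after the mean of each genotype was subtracted, with the 3 genes of highest value among all above the minimum level. These are the highest of 14446 values and share library, depth and tissue composition, so that they describe these libraries only. For Ddc they were Aldh6a1 (0.86), Cyp4v3 (0.81) and Etnppl (0.80). Etnppl, an astrocyte enzyme, rose from 5.98 to 17.0 RPKM (log2 fold change 1.37, limma, Benjamini-Hochberg adjusted p = 3.82e-05), while Aldh6a1 and Cyp4v3 did not pass the test. For Tph2 they were Nt5dc2 (0.87), C920006O11Rik (0.80) and Zfp51 (0.80), and for Maoa Anp32e (0.77), Ccdc15 (0.77) and Pcdhb13 (0.75). For Slc18a2 they were Dnaaf2 (0.78), Emx2os (0.73) and Ctdp1 (0.72), and for Maob Fam189a2 (0.81), Atp13a4 (0.80) and Ccdc141 (0.76). For the 4 genes with at most 13 reads in any library they were Trib1 (0.86), Ovol2 (0.85) and Ctgf (0.81) for Th, Tgfb1 (0.79), Abcb10 (0.75) and Xrcc6 (0.75) for Dbh, Ldlrad4 (0.77), Snx29 (0.76) and Dpp3 (0.73) for Slc6a3, and Gsto2 (0.80), Cpox (0.80) and Ahcyl2 (0.79) for Slc6a4. Among the members themselves the highest value was 0.73, between Dbh and Slc18a2, followed by 0.57 between Tph2 and Maoa and 0.49 between Tph2 and Ddc. Maoa and Maob, which lie side by side, had a value of 0.05.

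The positions of the genes were taken from GENCODE on build NCBIM37, which corresponds to mm9, the build named for these data. All 9 are protein-coding. Tph2 spans chr10:114515697-114622078 and Ddc chr11:11714104-11798047, both on the minus strand, Dbh chr2:27020753-27038720 on the plus strand, and Th chr7:150078657-150117033 on the minus strand. Slc6a3 spans chr13:73674195-73716120, Slc6a4 chr11:76812105-76845842 and Slc18a2 chr19:59335368-59370502, all on the plus strand. Maoa spans chrX:16196824-16264944 on the plus strand and Maob chrX:16286408-16394492 on the minus strand, so that their 3′ ends face each other across 21.5 kb. Ddc overlaps 1700042O10Rik on the opposite strand, which was at 0 RPKM in WT and at 0.0130 RPKM in R6/1. The strand setting of the counting is not given, so that reads of the pair may have been assigned to either gene, and the part of this in the Ddc values was not tested. Slc6a4 overlaps Gm12343 on the opposite strand.

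Lamina-associated domains are long stretches of chromatin held at the nuclear lamina, in which genes are mostly silent or low. The transcription starts of 4 of the 9 genes, Ddc, Tph2, Maoa and Maob, lay in a domain of the WT list and also in a domain of the R6/1 list. Of the 20512 genes of the expression table that could be placed, 4100 had their start in a WT domain and 3225 (15.7%) in an R6/1 domain. The members within domains thus include the genes of highest level among the 9. The start of Ddc lay well inside, 2844 kb from the nearer border of a WT domain of 9.80 Mb (chr11:8954001-18759000) and 2770 kb from that of an R6/1 domain of 9.73 Mb (chr11:9028001-18759000). The Ddc domain therefore had nearly the same extent in both lists, with a shared right border.

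The start of Tph2 lay at a domain edge. The WT domain reached from 96385001 to 114626000 on chromosome 10, a length of 18.24 Mb, and ended 4 kb beyond the Tph2 start. The R6/1 domain around Tph2 reached from 111370001 to 114663000, a length of 3.29 Mb, and ended 41 kb beyond the start. Domain borders lie on steps of 37 kb, so that the borders next to Tph2 differed by 1 step. A second R6/1 domain of 7.14 Mb lay farther inside the same WT domain, and together they covered 57.0% of it. Maoa and Maob lay together in a WT domain of 10.77 Mb (chrX:13431001-24198000) and an R6/1 domain of 3.70 Mb (chrX:13431001-17131000), with the same left border. Here too a second R6/1 domain, of 2.85 Mb, lay in the WT domain, of which 60.8% was covered in all. By the authors' score, the R6/1 domains that hold Tph2 and Ddc ranked 72 and 21 of 166 and that of Maoa and Maob ranked 120, so that 2 of the 4 genes remained in an R6/1 domain when only domains scoring at or above the median of the list were used. Each genotype has 1 list, so that the extents have no replicate spread and no test.

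**Figure D5:**
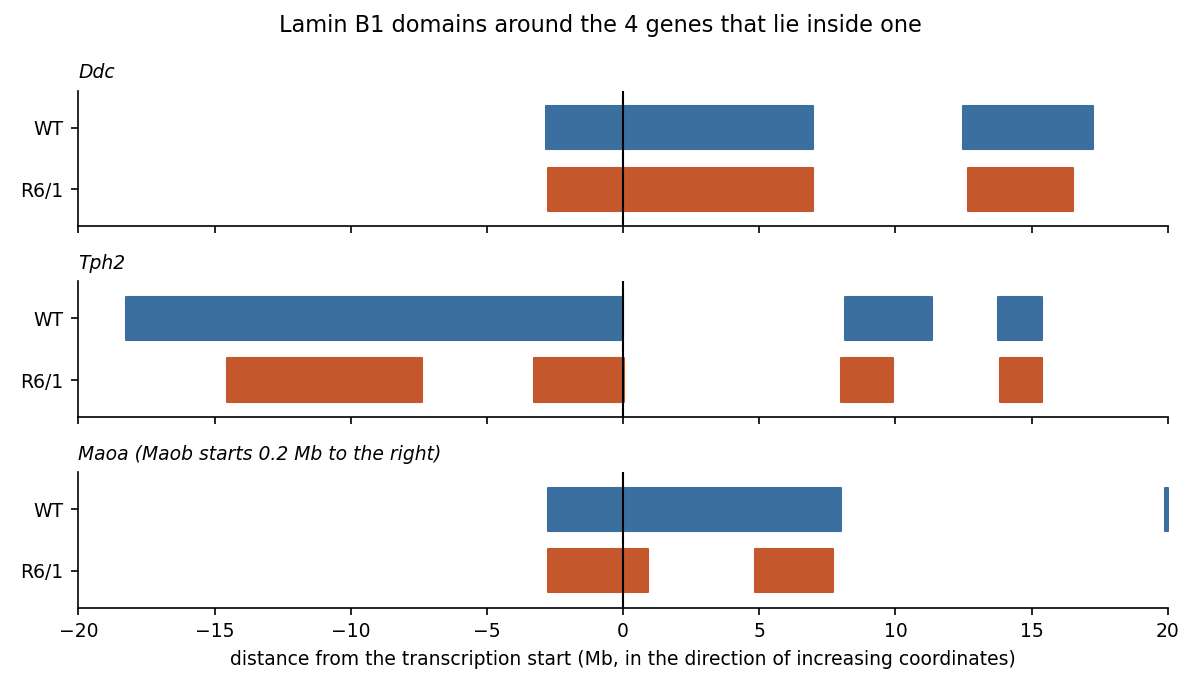
Lamin B1 domains (bars) of the WT and R6/1 lists within 20 Mb on either side of the transcription start of Ddc, Tph2 and Maoa (vertical line at 0), with distance in Mb on the horizontal axis. The Ddc domain has nearly the same extent in both lists, whereas the WT domains at Tph2 and Maoa, of 18.24 and 10.77 Mb, each hold 2 separate R6/1 bars, which cover 10.40 and 6.55 Mb of them.

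Other genes with their start in the same domains were counted in both lists, the members left out. Of all 14446 genes tested, 24.8% were higher and 23.5% lower in R6/1. In the WT domain of Ddc 17 were tested, of which 3 rose and 4 fell, with a median log2 fold change of 0.01, and in its R6/1 domain 16, with the same calls and median. In the WT domain of Tph2 38 were tested, with 5 higher and 12 lower and a median of -0.09. Its shorter R6/1 domain held 5, with 0 higher and 3 lower and a median of -0.14, so that none of the genes called there shared the direction of Tph2. In the WT domain of Maoa and Maob 23 were tested, with 4 higher and 6 lower and a median of -0.05, and in their R6/1 domain 2, of which 1 rose and 0 fell. The next protein-coding gene to Ddc, the growth factor receptor adaptor gene Grb10, whose end lies 32.5 kb before the annotated start of Ddc, rose with it, from 6.95 ± 0.765 to 11.4 ± 0.826 RPKM (SD, n = 9 each) without overlap (log2 fold change 0.68, limma, Benjamini-Hochberg adjusted p = 1.36e-08). Fignl1, 5.1 kb beyond the other end of Ddc, was under the minimum at 0.334 and 0.442 RPKM. Beside Tph2, Tbc1d15 had a log2 fold change of 0.10 (adjusted p = 0.0566) and Trhde one of -0.69 (adjusted p = 1.89e-06).

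Dbh lay outside the domains of both lists, 9091 kb from the nearest border. Both its neighbours also fell, as did 23.5% of all genes tested, and 11.9% of all genes tested did not overlap between the genotypes, in either direction. Sardh, sarcosine dehydrogenase, 5.2 kb away, fell from 3.26 ± 0.241 to 2.39 ± 0.317 RPKM without overlap (log2 fold change -0.38, limma, Benjamini-Hochberg adjusted p = 7.40e-05), and Fam163b, 22.7 kb away, fell from 70.2 ± 17.8 to 40.8 ± 2.55 RPKM (log2 fold change -0.73, adjusted p = 4.25e-05). Beside Slc18a2, Pdzd8, on the opposite strand with its end 0.1 kb from that of Slc18a2, had a log2 fold change of 0.06 (adjusted p = 0.343). Ndp, beside Maob, had one of -0.23 (adjusted p = 0.112). Among the members outside domains, Th, Slc6a3, Slc6a4 and Slc18a2 did not pass the test.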

How the data were processed

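RNA-seq values of 9 WT and 9 R6/1 hippocampus libraries and 1 lamin B1 domain list per genotype were used, with 0 columns of per-sample values left unused. The ATAC-seq samples and the ChIP-seq reads were not analysed here. TopHat, DESeq2 and build mm9 are named for RNA-seq, and Bowtie and mm9 for ChIP-seq, per the submitters' processing notes, without versions. The counter, its annotation and its strand setting are not given in the sources used here, while the library kit was stranded per the labels' protocols. The authors deposited RPKM for 24508 gene symbols. The authors' deposited table of the comparison holds the mean normalized count of a gene (a signal averaged over libraries), its log2 fold change and the error of that, a score from the test, and p-values, and 6113 of its genes have no adjusted p. The authors deposited each domain with a score, taken here for ranks inside each list and nothing else. Per the file names, EDD called the domains from lamin B1 relative to input, and how the replicates, each a pool of mice per the labels, were combined is not stated.

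Reads were recovered from the steps of the RPKM values. Between 99.85% and 99.89% of the values per library were whole within 0.05 of a read, and each library held between 12299434 and 16736544 reads. Floors of 3 reads cover counting error only. The test was limma 3.58.1 (R 4.3.3) on log2(RPKM + 0.5), fitted with a trend of variance on mean, two-sided, with Benjamini-Hochberg adjustment, over the 14446 genes whose mean reached 0.5 RPKM or the 20791 with a value above 0. It was tested on simulated data, in which changed genes were drawn only from those with a mean of at least 0.5 RPKM. Changes in genes as low as Th, Dbh, Slc6a3 and Slc6a4 were therefore not covered. Genes named are the 9 members, up to 3 called genes per pathway list with the largest change, Slc6a2, Slc22a3 and Tph1, the 3 genes most like each member, and the highest gene of each marker list. Other genes were named after their values were seen, and some genes of the lists are not reported here. The members and lists were chosen with earlier results of these data known. Alternatives were pseudocounts of 0.1 and 1, no filter or a minimum of 2 RPKM, quantile normalization, median centring, scaling to own totals, limma without a trend, limma-voom on recovered reads, the replicate number as a block, leaving out each library and, chosen after seeing the data, the 5 libraries of each genotype lowest and the 4 highest in choroid plexus markers. Where only domains scoring at or above the median were kept is said beside the value.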

Additional observations from a re-analysis of the deposited data

Results flagged for a closer look

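In 2 of 56 groups of 9 libraries examined, the extreme library stood farther from its nearest neighbour than Dixon's limit allows. About 2.80 such groups arise by chance, since chance marks about 1 in 20. Slc18a2 was 2.42 RPKM in R6/1 replicate 4, against 2.06 RPKM in the next library, and without that library its log2 fold change was -0.02 in place of 0.01. Drd5 was 4.19 RPKM in the same library, against 2.73 RPKM in the next. The vesicular transporter gene and this dopamine receptor gene were thus high in the same R6/1 library, in which Ddc was the second highest of its group.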

How the results depend on the processing

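Ddc, Tph2, Maoa and Dbh kept their direction under every alternative run and passed the threshold in all 18 fits that leave out 1 library. For Ddc, whose groups did not overlap, the direction under any choice of libraries was fixed. Some calls were lost over the 5 libraries of each genotype lowest and over the 4 highest in choroid plexus markers. These subsets were smaller and also differed in choroid plexus markers, which cannot be told apart here. The number of members higher in R6/1 was 1 in place of 3 in both subsets, in either fit. Tph2 and Maoa were lost and Ddc held. The number lower in the fit without a minimum was 0 in place of 1, by loss of Dbh, over the 4 highest. Over those 4, the genes called in all were 1706 higher and 1948 lower, and Th (0.08) and Slc18a2 (-0.13) changed sign. Leaving out 1 library gave Slc18a2 log2 fold changes from -0.02 to 0.05. With a stricter minimum of 2 RPKM, 2 members were higher, Tph2 no longer being tested. Of the 4 members in R6/1 domains, 2 remained when only domains scoring at or above the median were used. Replicate numbers are shared between the genotypes in the labels but did not pair the libraries: the correlation of same-numbered libraries ran from -0.0533 to 0.237 over 9 pairs, 3 of them above 0.1, and 2 pairs correlated best with their own number. With the number as a replicate block 3666 genes were higher and 3467 lower, the same number of members was called in each direction, and the adjusted p was 5.35e-05 for Ddc, 0.0279 for Tph2, 0.0222 for Maoa and 0.00949 for Dbh (limma). Depth limits what can be said of Th, Dbh, Slc6a3 and Slc6a4, with at most 13 reads in any library.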
